A study of Mus musculus with 6 samples.

Results

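Fatty acid synthesis, desaturation and elongation were followed through 10 genes, chosen by name and all found in the deposited table, out of 22564 genes there and 11416 that were tested. They are the regulator Srebf1, the synthesis genes Acly, Acaca and Fasn, the desaturase genes Scd1, Scd2, Fads1 and Fads2, and the elongase genes Elovl5 and Elovl6. The material was RNA of EOMA cells, an endothelioma line of the mouse, grown under normoxia in medium with serum. One group received 2 µM DHTS for 24 h (n = 3 libraries), and the other received the solvent DMSO for 24 h (n = 3 libraries). The compound, 15,16-dihydrotanshinone I, belongs to the tanshinones of plants, and the series title sets it in work on infantile hemangioma and hypoxia-inducible factor 1. All libraries come from a single cell line. Whether those of a group were separate cultures is not stated in the labels, and the p-values therefore describe library-to-library spread, which may be technical.

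Cells build fatty acids in the cytosol from citrate. ATP citrate lyase (Acly) releases acetyl-CoA, acetyl-CoA carboxylase (Acaca) turns it into malonyl-CoA, and fatty acid synthase (Fasn) joins these units into palmitate. Elongases then lengthen the chain and desaturases insert double bonds, which gives the monounsaturated and polyunsaturated acids of membrane lipids. The transcription factor SREBP-1, encoded by Srebf1, is held in the endoplasmic reticulum until it is escorted to the Golgi and cut free, and it drives most of these genes.

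Libraries held 9343154 to 12255247 estimated fragments. Across tested genes, the correlation was 0.986 to 0.989 within a group and 0.929 to 0.932 between groups, computed over genes, which are not replicates. The endothelial list held 17 markers, of which 5 averaged 1 FPKM or more (fragments per kilobase of transcript, scaled to library size), and 5 (Clec14a, Emcn, Fli1, Icam2 and Tie1) were listed at 0 in all 6 libraries. The cadherin gene Cdh5 of endothelial junctions had 0.0481, 0 and 0 FPKM with DHTS and was listed at 0 throughout with DMSO, so the labelled cell type is only partly borne out by its markers. The summed endothelial list stood at 137 to 158 FPKM with DHTS and at 118 to 122 FPKM with DMSO. Of 11 epithelial markers, 7 reached a mean of 1 FPKM, and the sum of the list was 269 to 278 FPKM with DHTS and 227 to 233 FPKM with DMSO. Each sum rested mostly on 1 gene, Cd34 (102 ± 4.21 FPKM with DHTS and 77.6 ± 2.90 FPKM with DMSO) and Krt18 (197 ± 4.89 FPKM with DHTS and 136 ± 2.79 FPKM with DMSO). Without Cd34 the endothelial sum was 34.7 to 53.6 FPKM with DHTS and 42.2 to 43.9 FPKM with DMSO, and the groups overlapped. Without Krt18 the epithelial sum was lower with DHTS, at 76.8 to 80.7 FPKM, against 89.4 to 97.6 FPKM with DMSO. Of 5 tested endothelial markers, 3 rose and 1 (Flt1) fell, and of 7 tested epithelial markers, 2 rose and 2 (Epcam and Elf3) fell. Among all tested genes, 28.2% were higher and 21.9% lower. The part of these markers in the results on fatty acid genes was not tested. Markers of cell types known for strong fatty acid synthesis were at or near 0. None of 8 hepatocyte markers and none of 8 adipocyte markers reached a mean of 1 FPKM. The hepatocyte sum was at most 0.114 FPKM with DHTS and at most 0.0797 FPKM with DMSO, and the adipocyte sum lay at 0.384 to 1.23 FPKM with DHTS and 0.706 to 1.70 FPKM with DMSO.

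All 10 genes were lower in DHTS-treated than in DMSO-treated cells. Their levels with DHTS were 29.6% to 68.0% of the DMSO mean, and in each of the 10 every DHTS library lay below every DMSO library. Each passed the test (limma on log2(FPKM + 1), adjusted p from 1.7e-07 to 8.5e-04, n = 3 against 3), as did 21.9% of all tested genes in the lower direction and 50.1% in either direction. Higher genes were 56.3% of all calls. Under quantile normalization they were 42.8% of calls, 29.9% of tested genes were lower, and the median of all genes shifted by -0.10. Of all tested genes, 26.8% likewise had every DHTS library below every DMSO library. The median log2 fold change was -0.97 over the 10 genes and 0.03 over all tested genes. Of the 10 genes, 5 passed the test with a fall of at least 2-fold on that scale, as did 1.75% of tested genes. In cultured cells measured in bulk, fewer cells of a kind and less RNA per cell cannot be told apart.

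**Figure D1:**
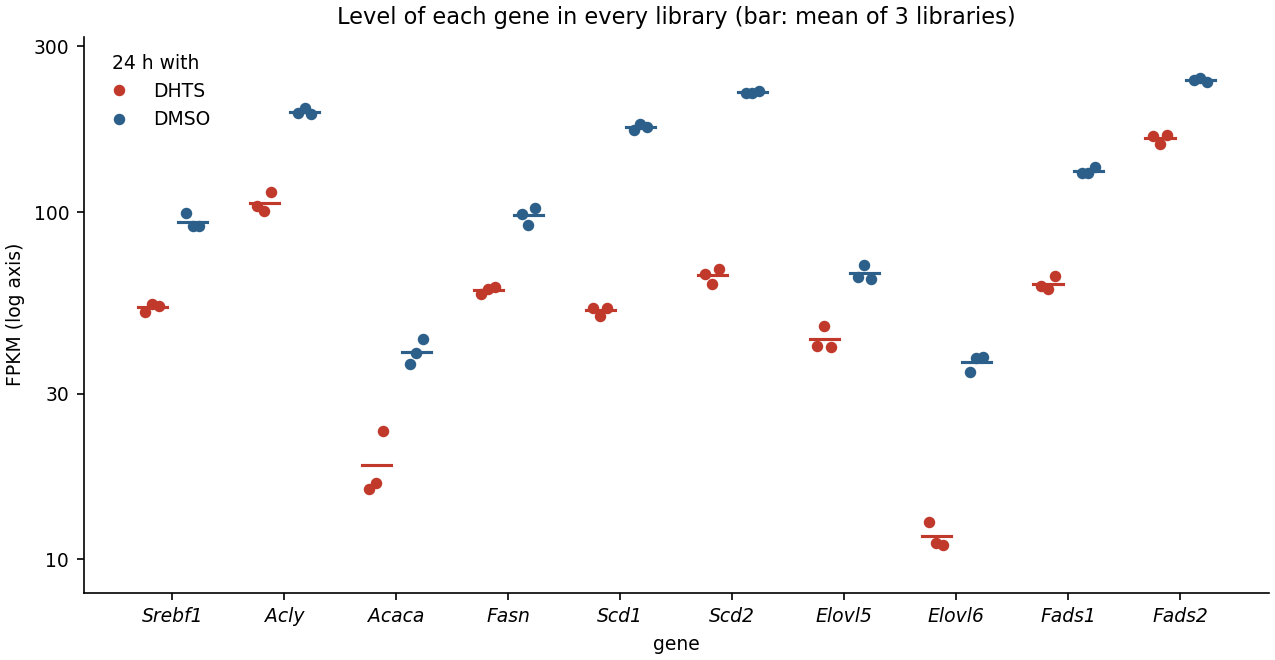
FPKM of the 10 genes (log axis), with a point for each library, DHTS left of DMSO, and a bar at the mean of 3 libraries. No DHTS point reaches a DMSO point of the same gene, and the gap is widest for Scd1, Scd2 and Elovl6.

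The regulator Srebf1 (ENSMUSG00000020538; mm10 chromosome 11, 60199089 to 60222581, minus strand) stood at 51.7, 54.2 and 53.5 FPKM in the DHTS libraries, against 99.2, 91.1 and 91.4 FPKM in the DMSO libraries. The 3 treated libraries lay within a few FPKM of each other and well below the untreated ones. Srebf1 fell by 0.81 on the log2 scale (SE 0.05, adjusted p = 1.3e-05), to 56.6% of its DMSO level. The table places Srebf1 in a merged locus with Rai1, whose 3′ end overlaps that of Srebf1 by 109 bases on the opposite strand. Rai1 stood at 18.4, 20.9 and 16.2 FPKM with DHTS and at 18.9, 19.9 and 19.9 FPKM with DMSO, and its groups overlapped. The strand setting is not given, so fragments in the overlap cannot be assigned to either gene. FPKM of Srebf1 here counts all its start sites together, so the forms of SREBP-1 that differ in their first exon were not separated.

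Srebf2, which encodes the related factor of cholesterol synthesis, fell by 1.09 (62.5 ± 1.08 FPKM with DHTS and 134 ± 3.45 FPKM with DMSO, SD, n = 3 each, adjusted p = 9.0e-07). Insig1, which holds SREBPs in the endoplasmic reticulum and is itself an SREBP target, fell by 1.61 to 44.5 ± 1.40 FPKM with DHTS, against 138 ± 2.10 FPKM with DMSO. Among the 6 genes of SREBP control outside the 10, 3 fell and 1 rose. The gene that rose was Scap, the escort that carries SREBPs to the Golgi, at 56.4 ± 4.10 FPKM with DHTS and 35.4 ± 1.97 FPKM with DMSO (log2 fold change 0.66, adjusted p = 2.4e-04). Mbtps1, the protease that makes the initial cut, fell by 0.35. Insig2 (0.07, adjusted p = 0.637) and the second protease Mbtps2 (-0.19, adjusted p = 0.221) did not pass.

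Acly (ENSMUSG00000020917; chromosome 11, 100476353 to 100528000, minus strand), the enzyme that makes cytosolic acetyl-CoA, had 104, 101 and 114 FPKM with DHTS, against 193, 199 and 192 FPKM with DMSO. The treated libraries spread more widely than the DMSO libraries, and all lay well below them. Acly fell by 0.87 (SE 0.05, adjusted p = 1.3e-05).

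Fasn (ENSMUSG00000025153; chromosome 11, 120805846 to 120824547, minus strand) had 57.9, 60.1 and 60.8 FPKM with DHTS, against 99.0, 92.0 and 103 FPKM with DMSO. Its fall of 0.71 (SE 0.05, adjusted p = 3.5e-05) was the smallest of the 3 synthesis genes in FPKM. In scaled fragments, the second deposited quantity, which is not divided by length, Fasn had 4835.5, 4829.1 and 5258.2 with DHTS, against 8931.7, 9256.5 and 9502.9 with DMSO. On that scale Fasn fell by 0.89 (SE 0.03, adjusted p = 3.8e-15), and its level was 53.9% of DMSO, against 60.8% in FPKM.

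Acaca (ENSMUSG00000020532; chromosome 11, 84129672 to 84401651, plus strand), whose product carries out the committed step of the pathway, had 15.9, 16.6 and 23.4 FPKM with DHTS, against 36.4, 39.2 and 43.1 FPKM with DMSO. The third DHTS library stood apart from the other two, yet below every DMSO library. Acaca fell by 1.06 with the largest error of the 10 genes (SE 0.14, adjusted p = 8.5e-04). Its scaled fragments did not show that spread, at 908.1, 896.0 and 954.7 with DHTS and 1774.2, 1824.5 and 1871.3 with DMSO (log2 fold change -0.99, SE 0.04). Each FPKM of Acaca corresponded to 57.0, 54.1 and 40.8 scaled fragments in the DHTS libraries and to 48.8, 46.5 and 43.4 in the DMSO libraries, so the deposited quantities of Acaca did not keep a fixed ratio across libraries, and the third DHTS library had the lowest.

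For Fasn the same ratio was 80.3 to 86.5 scaled fragments per FPKM with DHTS and 90.2 to 101 with DMSO, without overlap. For Scd1, Scd2, Elovl6, Fads1 and Fads2 the highest and lowest libraries differed by a factor of 1.02 or less.

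**Figure D2:**
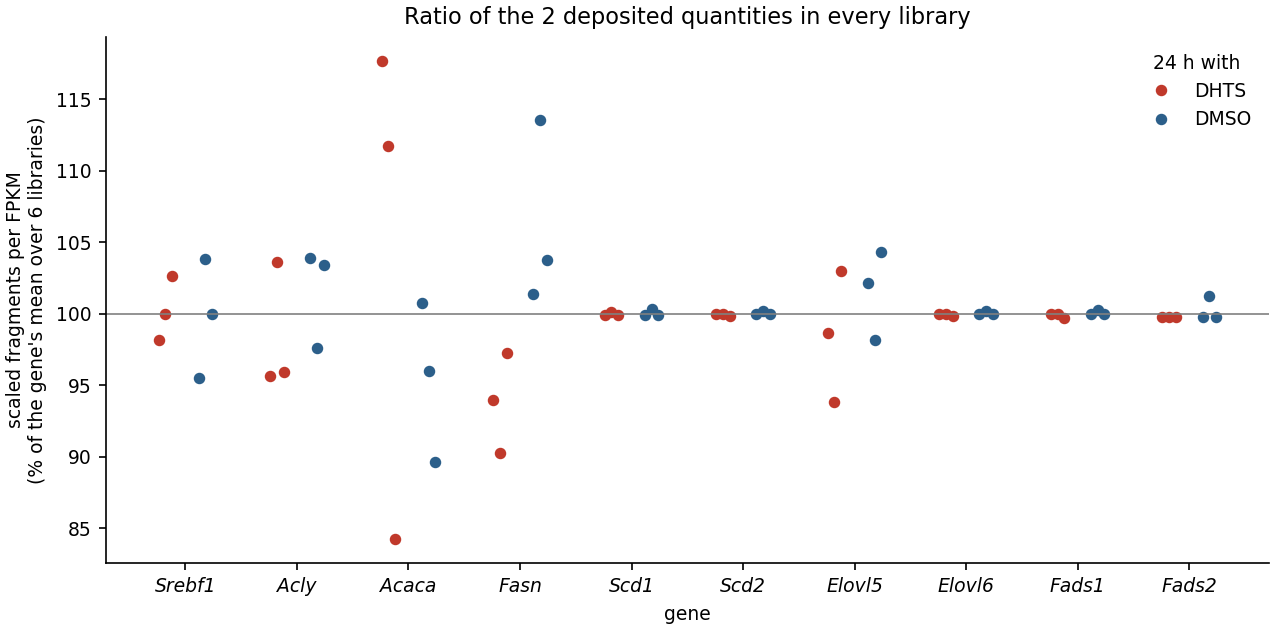
Scaled fragments per FPKM of each gene in every library, as a percentage of the gene's mean over 6 libraries, DHTS left of DMSO. Acaca spreads most, Fasn separates by treatment, and Scd1, Scd2, Elovl6 and Fads1 stay near their mean.

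Fragments on Acaca and Elovl6 were not whole numbers in every library, whereas the other 8 genes held whole fragments (within 0.1) in all 6. Of all stretches of 50 bases in Acaca transcripts, 49.1% occur in a processed pseudogene, Gm5182 on chromosome 12, and 3.98% of those of Elovl6 occur in other genes, mostly the processed pseudogene Gm11295. Neither pseudogene is listed in the deposited table. How fragments were split with these copies is not given in the sources used here, so the levels of both genes carry that uncertainty. Acaca is also placed in a merged locus with Gm11437, which overlaps it by 19126 bases and was listed at 0 FPKM in all 6 libraries. Acly, Fasn, Elovl5 and Fads1 shared no such stretch with another gene.

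Scd1 (ENSMUSG00000037071; chromosome 19, 44394455 to 44407879, minus strand) and Scd2 (ENSMUSG00000025203; chromosome 19, 44293674 to 44306864, plus strand) encode stearoyl-CoA desaturases, which place the first double bond in saturated acyl chains and so make oleate and palmitoleate. Scd1 had 53.0, 50.2 and 53.0 FPKM with DHTS, against 172, 179 and 176 FPKM with DMSO. Scd2 had 66.5, 62.1 and 68.4 FPKM with DHTS, against 219.9, 221 and 223 FPKM with DMSO. Within each group the libraries of both genes lay close together, and the distance between the groups was the widest of the 10 genes. Scd1 fell by 1.74 (SE 0.04, adjusted p = 1.7e-07) and Scd2 also fell by 1.74 (SE 0.04, adjusted p = 2.6e-07). Ordered from the strongest fall, they stood 29th and 27th of the 11416 tested genes.

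The coding sequences of Scd1 and Scd2 are 90.7% identical over 1064 aligned bases, with a longest identical run of 147 bases. The stretch in which they differ most, at 20 positions shown in capitals, is given because it shows how fragments of the 2 genes can be told apart (GENCODE M21 transcripts of GRCm38, 5′ to 3′, coding bases 103 to 202 of Scd1 and 112 to 211 of Scd2).
Scd1: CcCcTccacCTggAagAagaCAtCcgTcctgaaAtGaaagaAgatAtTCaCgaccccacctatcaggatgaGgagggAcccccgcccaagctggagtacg
Scd2: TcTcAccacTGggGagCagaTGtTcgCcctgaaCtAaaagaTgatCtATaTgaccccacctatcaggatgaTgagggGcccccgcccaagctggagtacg
Over whole transcripts, 4.61% of the 50-base stretches of Scd1 and 4.01% of those of Scd2 occur in another gene.

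Scd1 made up 44.3%, 44.7% and 43.7% of the summed FPKM of both genes in the DHTS libraries, against 43.8%, 44.8% and 44.1% in the DMSO libraries. The difference of -0.02 percentage points was smaller than the SD in either group (0.526 and 0.505 points, n = 3 each), and the groups overlapped (two-sided exact permutation test, p = 1). It lay between -0.25 and 0.27 points when single libraries were left out. The 2 further desaturase genes of the cluster, Scd3 and Scd4, did not reach 1 FPKM in any library and were not tested. They lie 49.7 and 26.2 kb from Scd2.

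**Figure D3:**
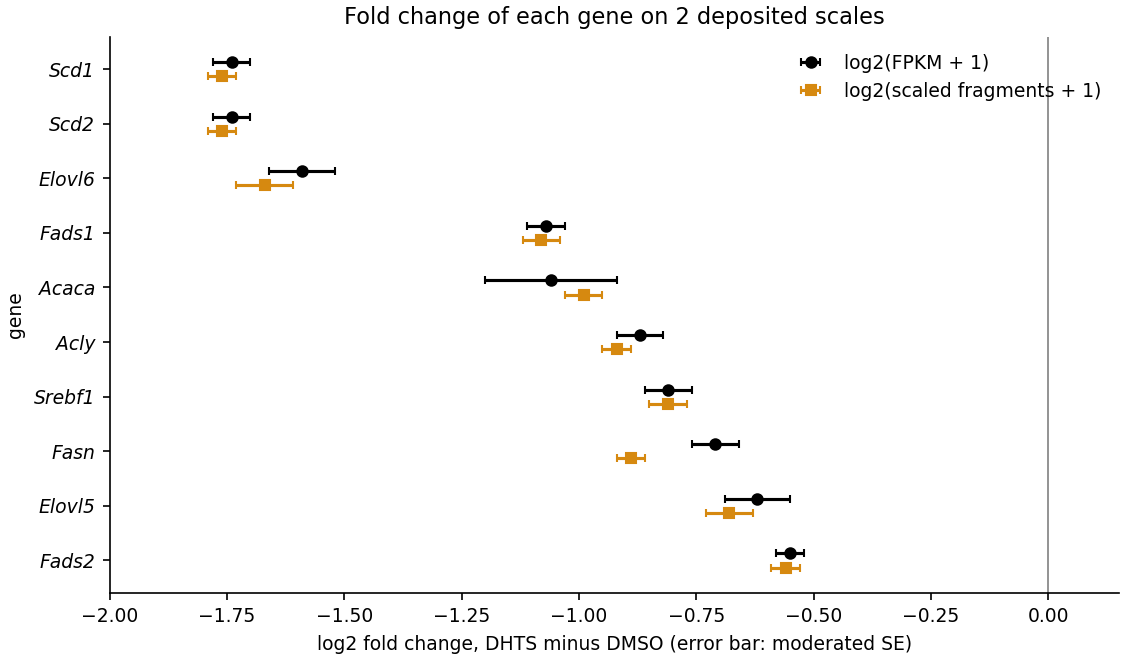
Log2 fold change of each gene (DHTS minus DMSO, SE as bars) on log2(FPKM + 1), circles, and on log2(scaled fragments + 1), squares. Scd1, Scd2 and Elovl6 lie below -1.5 on both scales, and Fasn is the gene whose 2 values lie furthest apart.

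Fads1 and Fads2 encode the front-end desaturases that turn dietary essential fatty acids into long polyunsaturated ones. They lie 81.1 kb apart on chromosome 19. Fads1 (ENSMUSG00000010663; 10182888 to 10196877, plus strand) had 61.2, 59.9 and 65.6 FPKM with DHTS, against 129.6, 129.7 and 135 FPKM with DMSO. It fell by 1.07 (SE 0.04, adjusted p = 2.8e-06). Fads2 (ENSMUSG00000024665; 10062765 to 10101746, minus strand) had the highest FPKM of the 10 genes in both groups, at 166, 157 and 167 FPKM with DHTS, against 240.2, 243 and 237 FPKM with DMSO. Its fall of 0.55 (SE 0.03, adjusted p = 1.7e-05) was the smallest of the 10. In scaled fragments, which are not divided by length, Fads2 had means of 2236.6 with DHTS and 3306.5 with DMSO. Fads1 had 2237.8 and 4728.8 there, and Scd2 had 3858.6 and 13018.7. Each FPKM corresponded to 13.7 to 13.9 scaled fragments for Fads2 and to 35.9 to 36.1 for Fads1. The longest transcripts of Fads2 and Fads1 have 3150 and 3460 bases. Fads3, which lies 2654 bases from Fads2, fell by 0.72 to 58.4 ± 1.57 FPKM with DHTS, against 96.8 ± 0.324 FPKM with DMSO.

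Fads1 made up 27.0%, 27.6% and 28.2% of the summed FPKM with DHTS, against 35.0%, 34.8% and 36.3% with DMSO, a difference of -7.76 percentage points. The groups did not overlap, and the two-sided exact permutation test gave p = 0.1, the smallest that 3 against 3 libraries can give (0.150 adjusted over the 3 gene pairs examined). This share and that of the elongases were chosen after the values were seen.

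Elovl5 (ENSMUSG00000032349; chromosome 9, 77917364 to 77984519, plus strand), the elongase of polyunsaturated chains, had 41.2, 47.1 and 40.8 FPKM with DHTS, against 65.2, 70.5 and 64.0 FPKM with DMSO. It fell by 0.62 (SE 0.07, adjusted p = 3.2e-04), to 64.7% of its DMSO level. Elovl6 (ENSMUSG00000041220; chromosome 3, 129532355 to 129638495, plus strand), which lengthens palmitate to stearate and so supplies the substrate of the stearoyl-CoA desaturases, had 12.8, 11.1 and 11 FPKM with DHTS, against 34.7, 38.1 and 38.2 FPKM with DMSO. It fell by 1.59 (SE 0.07, adjusted p = 5.0e-06), to 31.5% of its DMSO level, and had the lowest mean of the 10 genes in both groups. Elovl6 made up 23.7%, 19.1% and 21.2% of the FPKM of both elongases with DHTS, against 34.8%, 35.1% and 37.4% with DMSO. That difference of -14.39 points was again without overlap and at the smallest p the design allows (two-sided exact permutation test, p = 0.1, 0.150 adjusted). In scaled fragments the mean Elovl6 share was 43.7% with DHTS and 60.8% with DMSO, so its size also depends on the quantity used.

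**Figure D4:**
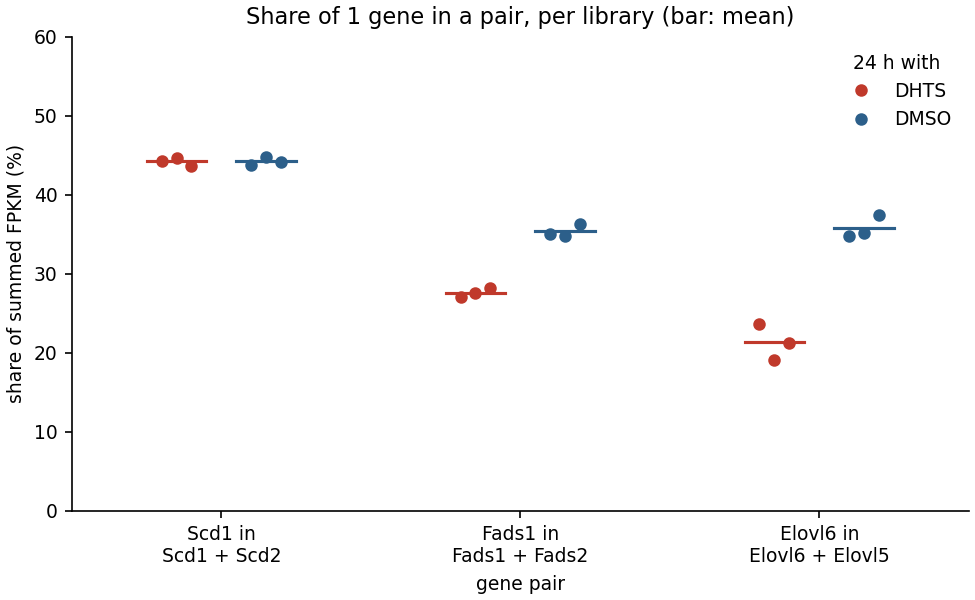
Share of the first gene of a pair in the summed FPKM of both, in percent, per library, DHTS left of DMSO, with a bar at the mean. The Scd1 share is near 44% in both groups, while the Fads1 and Elovl6 shares are lower with DHTS in every library.

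The order of the levels, which FPKM allows to be compared per length, differed between the groups. The top place of Fads2 holds in FPKM and not in scaled fragments. With DHTS the order ran from Fads2 (163 FPKM) and Acly (106) through Scd2 (65.7), Fads1 (62.2), Fasn (59.6), Srebf1 (53.2), Scd1 (52.1) and Elovl5 (43.0) to Acaca (18.6) and Elovl6 (11.6). Ranges overlapped there between Scd2 and Fads1, between Fads1 and Fasn, and between Srebf1 and Scd1. With DMSO it ran from Fads2 (240.0 FPKM), Scd2 (221), Acly (195), Scd1 (176) and Fads1 (131) through Fasn (98.0), Srebf1 (93.9) and Elovl5 (66.5) to Acaca (39.6) and Elovl6 (37.0). There, Fasn overlapped Srebf1 and Acaca overlapped Elovl6. Scd2 thus stood next to Fads2 with DMSO, while with DHTS it stood below Acly, and its range overlapped that of Fads1.

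Beyond the 10 genes, 54 genes around fatty acid synthesis were listed by role, of which 53 were matched and 44 tested. Of these, 21 fell and 5 rose, against 21.9% lower and 28.2% higher among all tested genes, and the median log2 fold change was -0.22, against 0.03 for all genes. Of the 5 that rose, 1 was Acsf3, the malonyl-CoA synthetase of mitochondria, which had 6.11, 7.58 and 6.41 FPKM with DHTS and was listed at 0 in all 3 libraries with DMSO. No fold change is given for it.

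All 4 genes listed for the supply of carbon and reducing power had lower transcript levels with DHTS, and the supply itself was not measured. Slc25a1, the carrier that exports citrate from mitochondria, had 60.1 ± 3.17 FPKM with DHTS and 102 ± 8.13 FPKM with DMSO (log2 fold change -0.75, adjusted p = 1.1e-04). Aacs, which activates acetoacetate for lipid synthesis, fell by 0.77 (33.5 ± 0.819 FPKM with DHTS and 57.6 ± 1.10 FPKM with DMSO). Acss2, which makes acetyl-CoA from acetate, fell by 0.70, and Me1, the malic enzyme that yields NADPH, fell by 0.44.

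Acyl-CoA synthetases, which activate fatty acids, fell in all 4 tested genes of 5 listed. Acsl3 had 9.73 ± 0.713 FPKM with DHTS and 21.3 ± 1.15 FPKM with DMSO (log2 fold change -1.06, adjusted p = 3.2e-05), and Acsl4, which prefers arachidonate, fell by 0.86. Acsl6 was not tested, with at most 0.448 FPKM in any library.

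Of 9 tested genes of the elongation cycle, 5 fell and 4 did not pass. Tecr, the reductase that ends each cycle, fell by 0.88 to 183 ± 9.62 FPKM with DHTS, against 337 ± 5.40 FPKM with DMSO. Hacd1, a dehydratase of the cycle listed under its older symbol Ptpla, fell by 0.95 (6.83 ± 1.41 FPKM with DHTS and 14.0 ± 0.636 FPKM with DMSO). Among those that did not pass was Elovl1, the elongase of saturated very long chains, at 68.5 ± 4.80 FPKM with DHTS and 62.9 ± 2.68 FPKM with DMSO (0.12, adjusted p = 0.139). Of 5 tested genes for desaturases and their electron supply, 3 fell: Fads3, the cytochrome gene Cyb5b (-0.70) and the reductase gene Cyb5r3 (-0.34). The other cytochrome gene, Cyb5a, listed under its older symbol Cyb5, had a higher FPKM than Cyb5b and did not pass. It stood at 111 ± 6.95 FPKM with DHTS and 121 ± 5.06 FPKM with DMSO (-0.12, adjusted p = 0.103).

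The cytosolic partners gave 1 fall among 3 tested genes. Mid1ip1, which promotes the polymerization of acetyl-CoA carboxylase, fell by 0.98 (36.0, 44.1 and 53.2 FPKM with DHTS, against 79.6, 111 and 77.1 FPKM with DMSO, adjusted p = 0.00324). Acacb, which encodes the related carboxylase of the mitochondrial surface, had 1.78, 1.88 and 3.20 FPKM with DHTS and 1.57, 1.64 and 1.07 FPKM with DMSO and did not pass (0.42, adjusted p = 0.112). Thrsp, a lipogenic gene of liver and fat, and Olah, a thioesterase gene, were listed at 0 throughout.

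The mitochondrial pathway, which makes the precursor of lipoic acid with separate enzymes, had no gene lower among 6 tested. With 6 genes that count says little, since 21.9% of all tested genes were lower and 28.2% higher. Besides Acsf3, the acyl carrier protein gene Ndufab1 rose by 0.66 (80.2 ± 6.11 FPKM with DHTS and 50.9 ± 9.63 FPKM with DMSO, adjusted p = 0.00452) and the reductase gene Cbr4 by 0.25. Mcat, Oxsm and Mecr did not pass.

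Of 7 tested transcription factors known to act on lipogenic genes besides SREBPs, 5 did not pass. Nfyb, a subunit of the CCAAT-binding factor NF-Y, rose by 1.53 to 58.2 ± 2.99 FPKM with DHTS, against 19.5 ± 0.569 FPKM with DMSO (adjusted p = 1.3e-06). Its partner Nfyc fell by 0.53 (21.4 ± 1.91 FPKM with DHTS and 31.5 ± 3.25 FPKM with DMSO), and Nfya did not pass (-0.18, adjusted p = 0.0629). Nr1h2, an LXR gene, stood at 48.7 ± 1.62 FPKM with DHTS and 46.8 ± 2.68 FPKM with DMSO and did not pass either. Nr1h3, the other LXR gene, and Mlxipl, which encodes the glucose-responsive factor ChREBP, had a mean under 1 FPKM and were not tested.

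**Figure D5:**
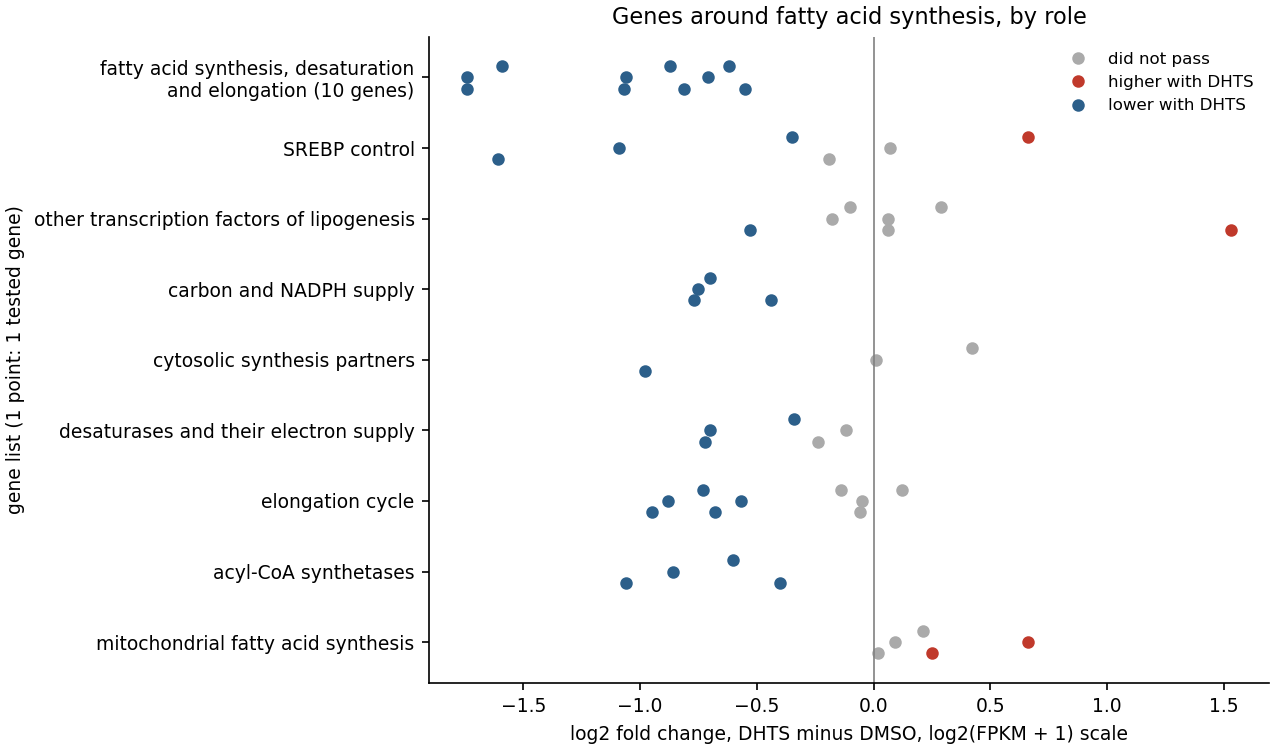
Log2 fold change (DHTS minus DMSO, log2(FPKM + 1) scale) of the 10 genes, top row, and of the tested genes in each list, coloured by whether they passed at an adjusted p under 0.05. Supply genes and acyl-CoA synthetases lie wholly below 0. Mitochondrial synthesis genes lie above it, but 3 of them did not pass, and Acsf3, listed at 0 with DMSO, is not drawn.

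NF-Y is known to act beside SREBPs on lipogenic promoters, so the promoters of the 10 genes were searched for its CCAAT box. RefSeq sequences of GRCm38.p6 were matched for 7 of the 10 genes, with 9 start sites. The window of Acaca lies within the gene and ends where 6 annotated transcripts have an internal exon, so it was left out. For the remaining 8 start sites of 6 genes, the 250 bases before the start were read on both strands. The windows of Srebf1 start sites 2 and 3 lie inside the gene. That of Fads2 (10101504 to 10101753) lies mostly inside it, since the annotated gene ends at 10101746. The Elovl6 window, which ends at 129532385, runs past the annotated gene start at 129532355. CCAAT occurred in 4 of the 8 promoters, in Fasn, Elovl5 and 2 of the 3 of Srebf1, against 33.8% of 32851 mouse promoters of that length. Fasn held 3 matches, which begin 90, 62 and 59 bases before the start, and the last pair overlap. The sequence TCACNCCAC, a form of the sterol regulatory element, occurred in none of the 8 and in 1.05% of all promoters. It was also absent from the same window of Insig1, an SREBP target. Its absence from the 8 therefore does not show that they lack SREBP sites. The E-box CACGTG occurred in 1 of the 8 (Elovl5) and in 6.02% of all, and the GC box GGGCGG in 4 of the 8 and in 32.7% of all. The NF-Y genes did not move together, since Nfyb rose, Nfyc fell and Nfya did not pass. A part of NF-Y in the falls of the 10 genes was not tested. The 3 promoters whose CCAAT box lies nearest to the start are shown, with CCAAT or its complement ATTGG in capitals.
Fasn, chr11:120824548-120824797, minus strand: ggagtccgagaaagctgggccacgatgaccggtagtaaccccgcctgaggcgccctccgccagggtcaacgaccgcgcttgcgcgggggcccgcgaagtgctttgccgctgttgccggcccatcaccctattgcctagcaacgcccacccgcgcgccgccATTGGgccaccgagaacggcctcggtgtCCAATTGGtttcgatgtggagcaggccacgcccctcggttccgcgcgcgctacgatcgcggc
Elovl5, chr9:77917115-77917364, plus strand: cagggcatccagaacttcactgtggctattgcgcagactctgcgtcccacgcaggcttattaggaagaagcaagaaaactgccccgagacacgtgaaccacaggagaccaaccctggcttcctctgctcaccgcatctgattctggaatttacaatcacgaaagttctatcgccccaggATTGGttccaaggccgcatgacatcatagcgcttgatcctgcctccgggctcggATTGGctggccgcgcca
Srebf1, chr11:60210472-60210721, minus strand: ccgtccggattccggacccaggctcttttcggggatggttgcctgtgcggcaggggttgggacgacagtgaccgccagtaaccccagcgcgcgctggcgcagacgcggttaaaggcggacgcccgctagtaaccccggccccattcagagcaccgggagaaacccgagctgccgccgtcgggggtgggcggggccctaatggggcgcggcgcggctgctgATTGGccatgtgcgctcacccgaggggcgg
Elovl5 held matches that begin 71 and 17 bases before the start, and the Srebf1 promoter shown, which belongs to a start site inside the gene, held 1 at 30 bases. Elovl6 held none of the 4 motifs in this window. The presence of these letters is a description of the sequence, and binding was not measured.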

How the data were processed

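The deposited table holds 22564 genes. The submitters' processing notes name Cuffdiff 2.2.1, Cufflinks, HISAT2 2.0.4 and fastp 0.20.0, with mm10 as the build. The role of each tool, the annotation and the strand setting were not given in the sources used here. An FPKM value per gene and library, scaled to length and library size, was deposited by the authors. The authors also deposited a signal, headed as counts, of estimated fragments in which each library carries its own scaling factor. Of its values above 0, 92.7% to 93.0% lay within 0.1 of a whole fragment once that factor was estimated, too few for a count model.

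Genes with a mean of at least 1 FPKM over the 6 libraries entered a limma fit (version 3.58.1, R 4.3.3, trend and robust) on log2(FPKM + 1), with treatment as the only term, two-sided, with Benjamini-Hochberg adjustment over 11416 genes and a threshold of 0.05. A fold change on that scale understates the change of low genes. SE is limma's moderated standard error, and SD refers to the 3 libraries within a group. Shares were tested by exact permutation in SciPy 1.17.1. The genes, lists and tests were chosen with earlier results of these data known. All 10 genes are named, and of each list the 2 largest rises and 2 largest falls past the threshold, or a gene picked after its values were seen. List names missing from the table were matched by Ensembl ID. Gene coordinates, from 1, and transcripts are from GENCODE M21, and promoters from RefSeq. A promoter window that ends at an internal exon was left out, a rule added after the sequences were seen. The fit was tested on simulated data with known changes. Alternatives were another pseudocount, filter, scaling, variance model or deposited quantity, leaving out each library, and a replicate block.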

Additional observations from a re-analysis of the deposited data

How the results depend on the processing

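The 10 falls kept their direction and an adjusted p under 0.05 in all 140 combinations of gene and alternative setting (scaled fragments, a replicate block, a library left out, plain limma without a trend, quantile or median-ratio scaling, a filter at 5 FPKM or none, and a pseudocount of 0.1). The highest adjusted p was 0.00451, for Acaca, whose log2 fold change ran from -1.23 to -0.97. The median over the 10 genes ran from -1.01 to -0.91 when single libraries were left out. The difference in the Scd1 share, which did not pass the test, turned from -0.02 to 0.27 points without DHTS replicate 3 and to 0.26 points without DMSO replicate 2, over a range of -0.25 to 0.27. With a replicate block, all 10 genes were lower, 6 listed genes outside them were higher and 22 lower, and 3053 and 2384 of all genes were higher and lower. Libraries with the same number showed no clear joint deviation (r = -0.05, 0.06 and 0.01), against r from -0.08 to 0.08 for different numbers. With 3 libraries per group this cannot exclude a weak pairing. On scaled fragments 7 listed genes were higher and 25 lower, against 5 and 21 in FPKM. Calls over all genes also rose on that scale, to 4050 higher and 3411 lower of 11930 tested. In FPKM they were 3218 and 2502 of 11416. Each of the 10 genes rested on 628.6 to 15268 estimated fragments per library. Changes of listed genes near 1 FPKM, such as Acacb, may not be detectable at this depth.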
